A study of Mus musculus with 6 samples.

Results

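The genes described here encode the sarcomere and the proteins that build and maintain it: 34 genes, chosen by name, of the 19572 features that carry 1 gene symbol on the array. All 34 were found, each on 1 feature, and fell into 4 roles: 8 thin filament genes, 6 thick filament and M band genes, 11 Z disc genes, and 9 genes for assembly, chaperone activity and turnover. The choice applied no threshold to measured values, although it was made with earlier results of these data known. The series held 6 male mice. Each was 8 weeks old when its left coronary artery was tied, and each gave 1 whole-heart RNA sample. The Ctrl mice carried Tcf21iCre/Tomato, and their hearts were taken 2 months (2 hearts, called 8W-Ctrl in the labels) or 3 months (2 hearts, 12W-Ctrl) after myocardial infarction (MI). The TTg mice carried Tcf21iCre/Tomato/MGTH2A, and their 2 hearts (12W-TTg) were taken 3 months after MI. The MGTH2A transgene joins Mef2c with Gata4, Tbx5 and Hand2, which are regulators of heart muscle genes. The Cre is driven by Tcf21, a gene of the cardiac fibroblast lineage, so the transgene is aimed at fibroblasts and not at the cardiomyocytes that make most sarcomere RNA. All 6 hearts carried the Cre and the Tomato reporter, all were infarcted, and mice whose ejection fraction remained above the study's limit soon after surgery had been left out. No uninjured heart was analysed here.

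The sarcomere is the contractile unit of striated muscle. Myosin thick filaments, held in register at the M band, pull on actin thin filaments anchored at the Z disc, and troponin and tropomyosin make the pull depend on calcium. Chaperones fold myosin, muscle ubiquitin ligases remove worn proteins, and serum response factor with its cardiac partner myocardin switches many of these genes on through a DNA element called the CArG box. Transcription factors of the MEF2 family, to which Mef2c belongs, bind a different A/T-rich element.

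Promoter sequences are shown for genes that the results below turn on and that hold one of these elements, with the element in capitals. RefSeq sequence of mouse build GRCm38.p6, from 250 bases before to 50 bases after each gene's start, was matched by symbol for 26 of the 34 genes. Both strands were searched. A CArG box was found in 6 of the 26 (23.1%): Actc1, Fhl2, Ldb3, Myl3, Myom1 and Nebl. It was found in 1.81% of the 27025 genes with such a window. An MEF2 site was found in 4 (15.4%), namely Fhl2, Mybpc3, Myoz2 and Ttn, against 3.7% of all genes. The GATA-type letters AGATAA were present in 6 of the 26 (23.1%) against 12.7% of all genes, and TATAAA in 7 (26.9%) against 15.7%. The MEF2 site and TATAAA can overlap. A match describes letters in this window and does not show that a factor binds there. The first 5 lines show CArG boxes and the other 2 show MEF2 sites, all written 5′ to 3′ on the gene's strand.
Actc1: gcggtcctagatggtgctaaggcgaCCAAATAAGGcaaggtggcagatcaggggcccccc
Fhl2: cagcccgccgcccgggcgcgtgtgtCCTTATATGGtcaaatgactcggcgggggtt
Ldb3: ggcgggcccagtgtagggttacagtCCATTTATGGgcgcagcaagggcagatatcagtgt
Myom1: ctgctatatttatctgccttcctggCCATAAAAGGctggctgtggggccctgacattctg
Nebl: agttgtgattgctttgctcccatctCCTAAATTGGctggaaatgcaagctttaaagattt
Mybpc3: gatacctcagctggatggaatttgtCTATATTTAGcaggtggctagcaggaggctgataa
Ttn: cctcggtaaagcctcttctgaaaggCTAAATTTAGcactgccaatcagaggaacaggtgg

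The Actc1 stretch lies at chr2:114052888-114052947 on the minus strand, and its box begins 47 bases before the gene's start. The Fhl2 stretch lies at chr1:43163962-43164017 (minus strand, box 31 bases before the start), and the Ldb3 stretch at chr14:34588682-34588741 (minus strand, 35 bases). The Myom1 stretch lies at chr17:71019433-71019492 (plus strand, 99 bases), and the Nebl stretch at chr2:17462984-17463043 (minus strand, 162 bases). The Mybpc3 stretch lies at chr2:91118029-91118088 (plus strand, MEF2 site 90 bases before the start), and the Ttn stretch at chr2:76982679-76982738 (minus strand, 166 bases). Fhl2 has a second start in RefSeq, and a CArG box lies 96 bases before that start as well (stretch chr1:43196823-43196882, minus strand). The genes with a CArG box did not share the heart of their lowest value. It was Ctrl heart 1 at 2 months for Myom1 and Nebl, and Ctrl heart 2 at 2 months for Ldb3. For Fhl2 and Myl3 it was Ctrl heart 1 at 3 months, and Actc1 lay near the top of the scale in every heart. By group mean, Fhl2, Ldb3, Myom1 and Nebl were highest in TTg, Ldb3 by only 0.005 over Ctrl at 3 months. Myl3 was highest in Ctrl at 2 months.

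Across all 34 genes, none differed between any pair of groups after Benjamini-Hochberg adjustment over all 22206 features (limma). The 3 comparisons were the genotypes at 3 months (TTg minus Ctrl), the times within Ctrl (3 minus 2 months), and the TTg hearts against the earlier Ctrl hearts. The smallest adjusted p among the 34 genes was 0.661, 0.406 and 0.340 in that order. The background was as sparse: 1 feature was called in each of the first 2 comparisons (0.0045%; Jchain, lower in TTg, and Adh1, lower in the 3-month Ctrl hearts, both named after their values were seen) and 0 (0%) in the last. The values below therefore describe these 6 hearts, and differences are in log2 units, each with the standard error of the fit. The 3 comparisons share hearts in pairs, so their values are given side by side and not as repeats of each other.

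At an unadjusted p under 0.05, TTg against Ctrl at 3 months gave 2 genes higher (Tmod1 and Smyd1; 3.35% of all features were higher by this rule) and 2 lower (Myot and Des; 4.11%). Ctrl at 3 months against Ctrl at 2 months gave 5 higher (Ldb3, Mypn, Myot, Des and Myocd; 3.91%) and 1 lower (Tcap; 4.09%). The TTg hearts against the earlier Ctrl hearts gave 6 higher (Myom1, Ldb3, Mypn, Nebl, Trim55 and Smyd1; 4.3%) and 0 lower (5.41%). With 2 hearts in a group, groups often fail to overlap: 38.4%, 35.7% and 40.1% of all features did not overlap in the 3 comparisons. Among the 34 genes, 16, 15 and 15 did not overlap (47.1%, 44.1% and 44.1%). The median difference over the 34 genes was 0.07, 0.08 and 0.31, against 0.01, 0.01 and 0.02 over all features. In the first comparison 22 genes were above 0 (50.9% of all features were) and 10 below (48.3%). In the second 20 were above (50.5%) and 12 below (48.8%), and in the last 24 (52.1%) and 9 (47.3%). Of 31 genes with no tie between group means, 16 had their highest mean in the TTg hearts, 9 in the 3-month Ctrl hearts and 6 in the 2-month Ctrl hearts. That count was not made over all features, so it shows no excess.

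**Figure D1:**
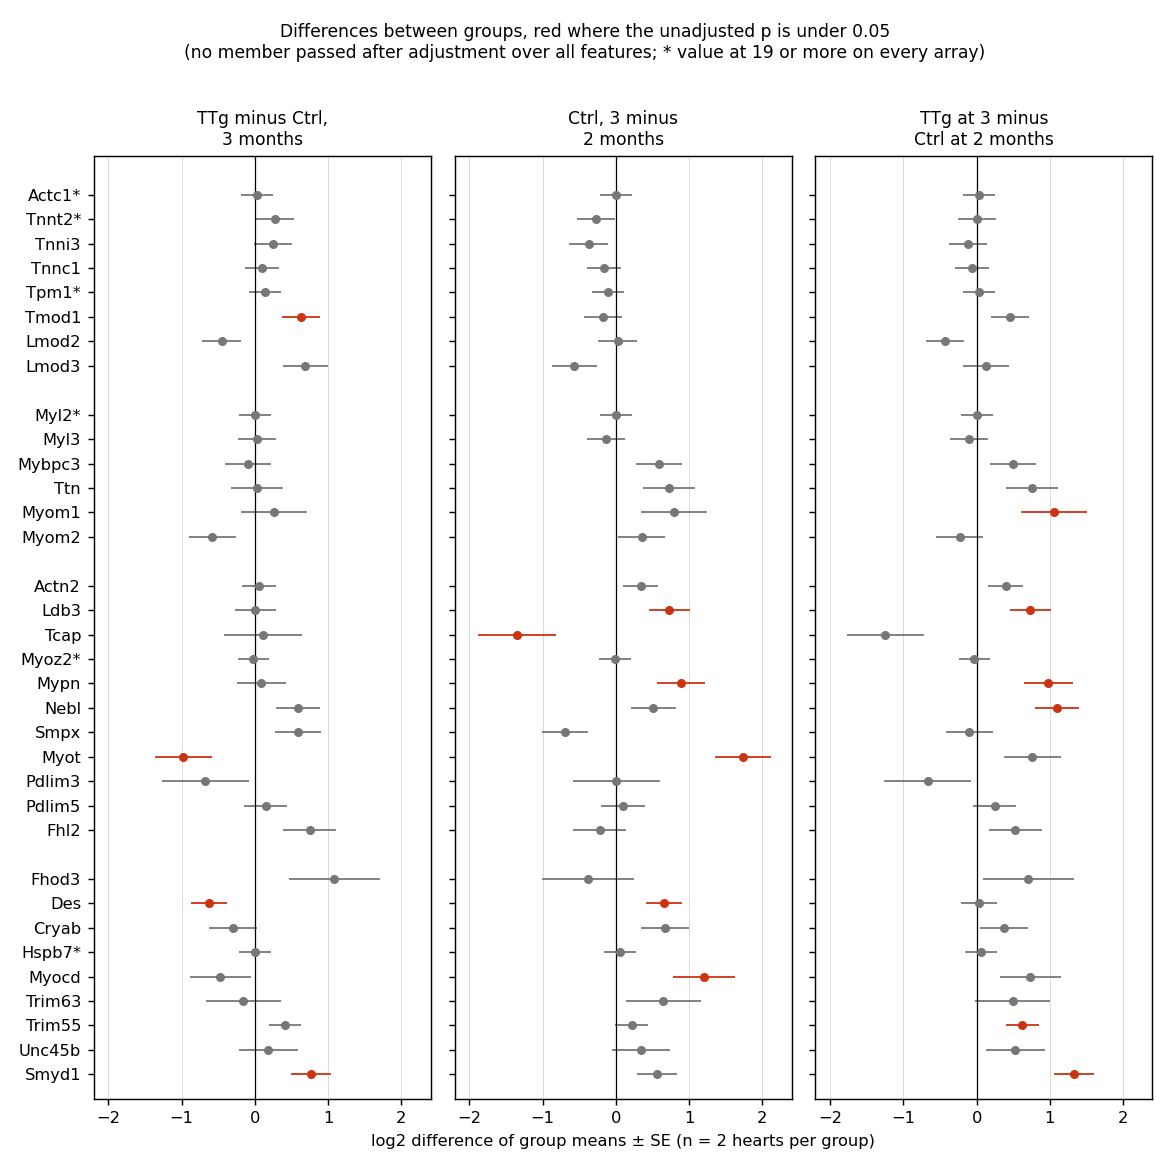
Difference between group means (log2, horizontal axis) of each of the 34 genes in the 3 comparisons; points are differences, bars their standard errors from the fit, and red marks an unadjusted p under 0.05. Most points lie within 1 log2 unit of 0, and Myot (1.73) and Smyd1 (1.33) lie farthest to the right.

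Single hearts decided several of these counts. For TTg against Ctrl at 3 months, 0 genes were at an unadjusted p under 0.05 without Ctrl heart 1 and 0 without TTg heart 2, while 6 were higher without Ctrl heart 2. The median difference ran from -0.04 to 0.28 when 1 heart was left out. For Ctrl at 3 against 2 months, the excess of higher over lower genes by this rule did not hold without Ctrl heart 2 at 3 months. The median of that comparison ran from 0.03 to 0.33, and that of TTg against the earlier Ctrl hearts from 0.125 to 0.32. Ctrl heart 1 at 3 months held the lowest value of the 6 hearts for 10 of the 34 genes, and Ctrl heart 2 at 3 months the highest for 9. Ctrl heart 1 at 2 months held the lowest for 11, a count that includes Myl2, which was tied in all 6 hearts. The same heart held the highest for 8, a count that also includes ties. These counts were not made over all features. Between the 2 hearts of a group, the median gap over the 34 genes was 0.44 in the 3-month Ctrl hearts, 0.27 in the 2-month Ctrl hearts and 0.14 in the TTg hearts, against 0.31, 0.32 and 0.27 over all features.

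**Figure D2:**
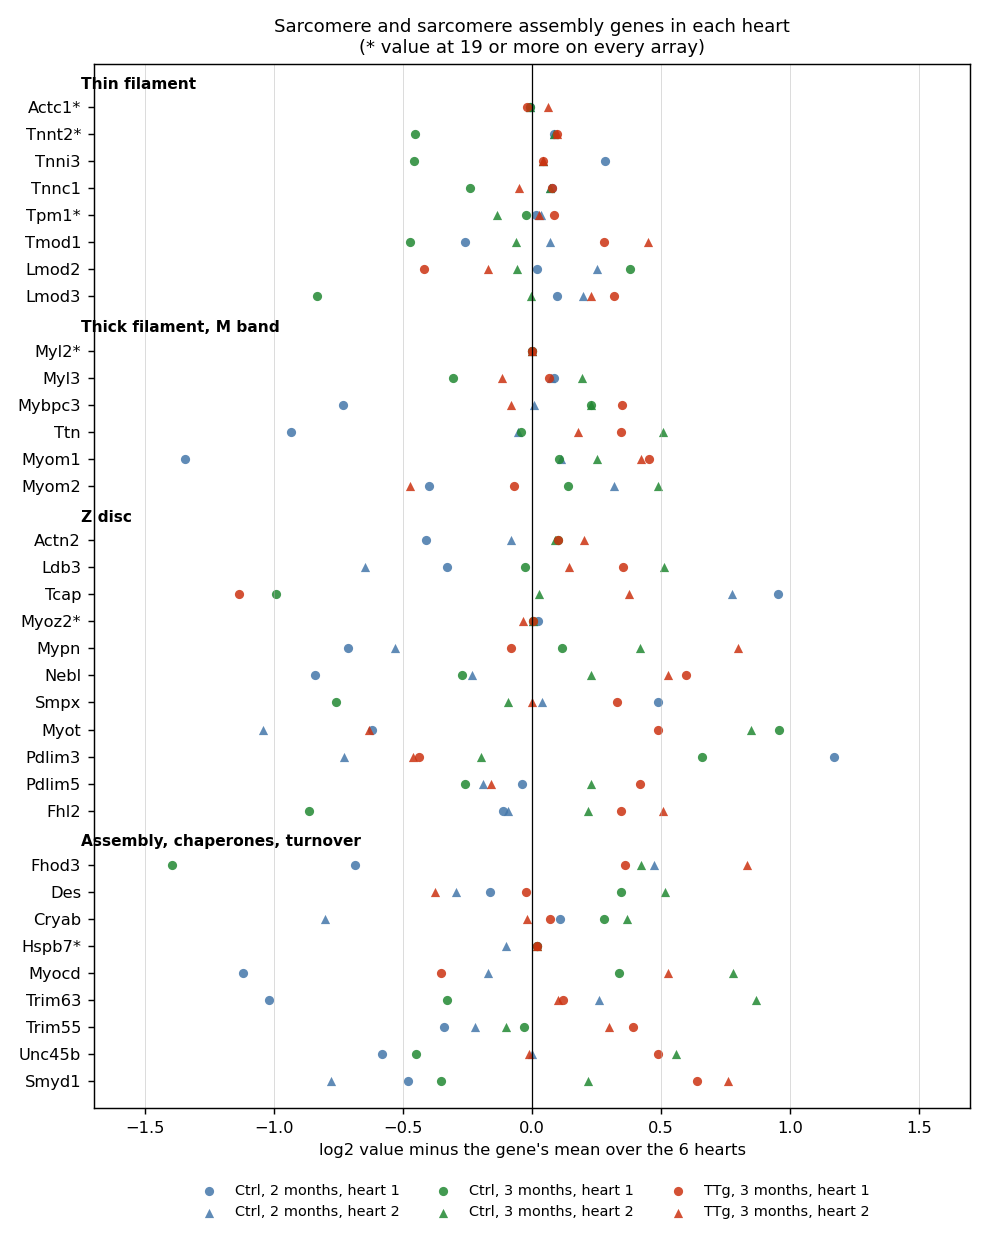
Deposited log2 value of each of the 34 genes in each of the 6 hearts as the deviation from that gene's mean over the hearts (log2, horizontal axis), with genes in rows by role; colours are groups, circles heart 1 and triangles heart 2. The single hearts of a Ctrl group lie apart in many rows.

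Markers of other cell types also differed between the hearts, and 2 hearts stood apart. All 12 skeletal muscle genes measured were highest in Ctrl heart 1 at 2 months, where their mean was 6.75, against 3.68 to 3.84 in the other 5 hearts, where 5 to 7 of the 12 lay below the 30th percentile of the array, 3.65. Myh2, a fast skeletal myosin, was 10.51 there and at most 3.81 elsewhere. In Ctrl heart 2 at 3 months the mean of 10 atrial genes was low (9.32, against 11.70 to 13.31 in the others). There the atrial light chains Myl7 and Myl4 read 3.45 and 5.90, and sarcolipin (Sln) 5.53. The list was not low as a whole. Kcnj3 was 10.33 there and 9.16 in Ctrl heart 1 at 3 months, and Gnao1 was 11.88 there and at most 10.68 in the other groups. Fibroblast genes (9 measured) had means of 12.87 and 11.06 in the 2-month Ctrl hearts, 12.79 and 11.73 in the 3-month Ctrl hearts, and 11.26 and 9.91 in the TTg hearts. Macrophage genes (9 measured) had means of 10.27 and 9.25, 10.38 and 8.97, and 8.48 and 8.02 in the same order, so the TTg hearts were lowest. All 9 genes of each list had a lower mean in TTg than in Ctrl at 3 months. Endothelial genes (9 measured) lay between 11.53 and 11.94, and smooth muscle and pericyte genes (10 measured) between 9.18 and 9.78. These means cover genes that went opposite ways. Of genes picked after their values were seen, Kdr, a VEGF receptor of endothelium, was 2.14 ± 0.33 higher in TTg than in Ctrl at 2 months, Acta2, smooth muscle actin, 2.23 ± 0.59 higher, and Fabp4, a fatty acid carrier of capillaries, differed by -1.21 ± 0.26 (limma adjusted p = 0.340, 0.351 and 0.340). In the same order, TTg minus Ctrl at 3 months was 0.635 ± 0.33, 1.39 ± 0.59 and -0.165 ± 0.26. Ctrl at 3 minus 2 months was 1.505 ± 0.33, 0.84 ± 0.59 and -1.05 ± 0.26. Cardiomyocyte genes outside the sarcomere (14 measured), by contrast, had means of 16.10 and 16.68, 16.18 and 16.64, and 16.78 and 16.85. By these means the first heart of each Ctrl group was lowest and the TTg hearts highest. Not all 14 genes followed: Ckm (15.11) and Cox7a1 (16.65) were highest in Ctrl heart 1 at 2 months. Pln, Mb and Fabp3 each gave one value in all 6 hearts, near the top of the scale. The part these differences play in the sarcomere values was not tested. In whole-heart RNA, fewer cells of a type and less RNA per cell cannot be told apart.

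**Figure D3:**
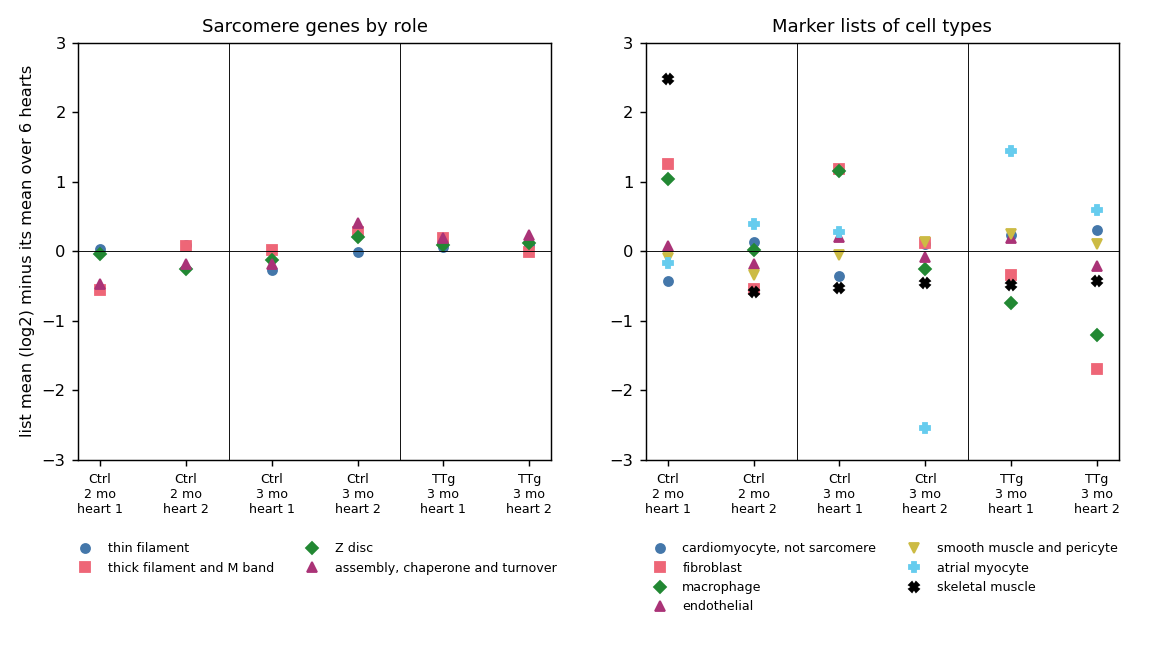
Mean log2 value of the sarcomere genes by role (left) and of the cell type lists (right) in each heart, each minus that list's mean over the 6 hearts (vertical axis). Before that subtraction the skeletal muscle list stands at 6.75 in Ctrl heart 1 at 2 months against at most 3.84 elsewhere, and the atrial list is lowest, 9.32, in Ctrl heart 2 at 3 months.

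Of the 8 thin filament genes, 7 had a higher mean in TTg than in Ctrl at 3 months (50.9% of all features were above 0). Among the 7 are Actc1, Tnnt2 and Tpm1, which read 19 or more on every array, near the top of the scale. Of the 7, Tnnc1 was below 0 and Tnni3 at 0 without Ctrl heart 1, and Actc1 was below 0 without TTg heart 2 and under quantile scaling. The median difference of the 8 genes was 0.19 between TTg and Ctrl at 3 months, 0.02 without Ctrl heart 1, and -0.17 between Ctrl at 3 and at 2 months. Actc1, the cardiac alpha-actin of the filament itself, read 19.72 in all 4 Ctrl hearts, and 19.71 and 19.79 in TTg. Tnnt2, the troponin subunit that attaches the complex to tropomyosin, read 19.91 and 19.91 at 2 months, 19.37 and 19.91 in the later Ctrl hearts, and 19.92 and 19.92 in TTg. Only the first Ctrl heart at 3 months stood below the rest. Tnni3, the inhibitory subunit, showed the same heart at the bottom: 18.56 and 18.32, 17.82 and 18.32, and 18.32 and 18.32. Tnnc1, the calcium-binding subunit, was 18.81 and 18.80, then 18.49 and 18.80, then 18.81 and 18.68. The TTg-minus-Ctrl interval of Tnnc1 at 3 months, -0.45 to 0.65, lay within a 2-fold change. Tpm1, the tropomyosin that covers the myosin sites on actin, stayed between 19.70 and 19.92 in the 6 hearts.

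The other 3 thin filament genes cap or seed the actin ends. Tmod1, which caps the pointed end and so sets filament length, was 15.62 and 15.95 in Ctrl at 2 months, 15.41 and 15.82 in the later Ctrl hearts, and 16.16 and 16.33 in TTg. Both TTg hearts lay above all 4 Ctrl hearts, and the TTg difference at 3 months was 0.63 ± 0.26 (limma, adjusted p = 0.665). Lmod2, a leiomodin that lengthens filaments at the same end, went the other way: 15.30 and 15.53, 15.66 and 15.22, and 14.86 and 15.11, with both TTg hearts below every Ctrl heart. Its difference was -0.46 ± 0.26, and -0.23 without Ctrl heart 1 at 3 months. Lmod3, a related leiomodin, was 11.33 and 11.43, then 10.40 and 11.23, then 11.55 and 11.46. Its difference of 0.69 ± 0.31 (limma adjusted p = 0.679) became 0.28 without Ctrl heart 1 at 3 months, the one low heart.

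**Figure D4:**
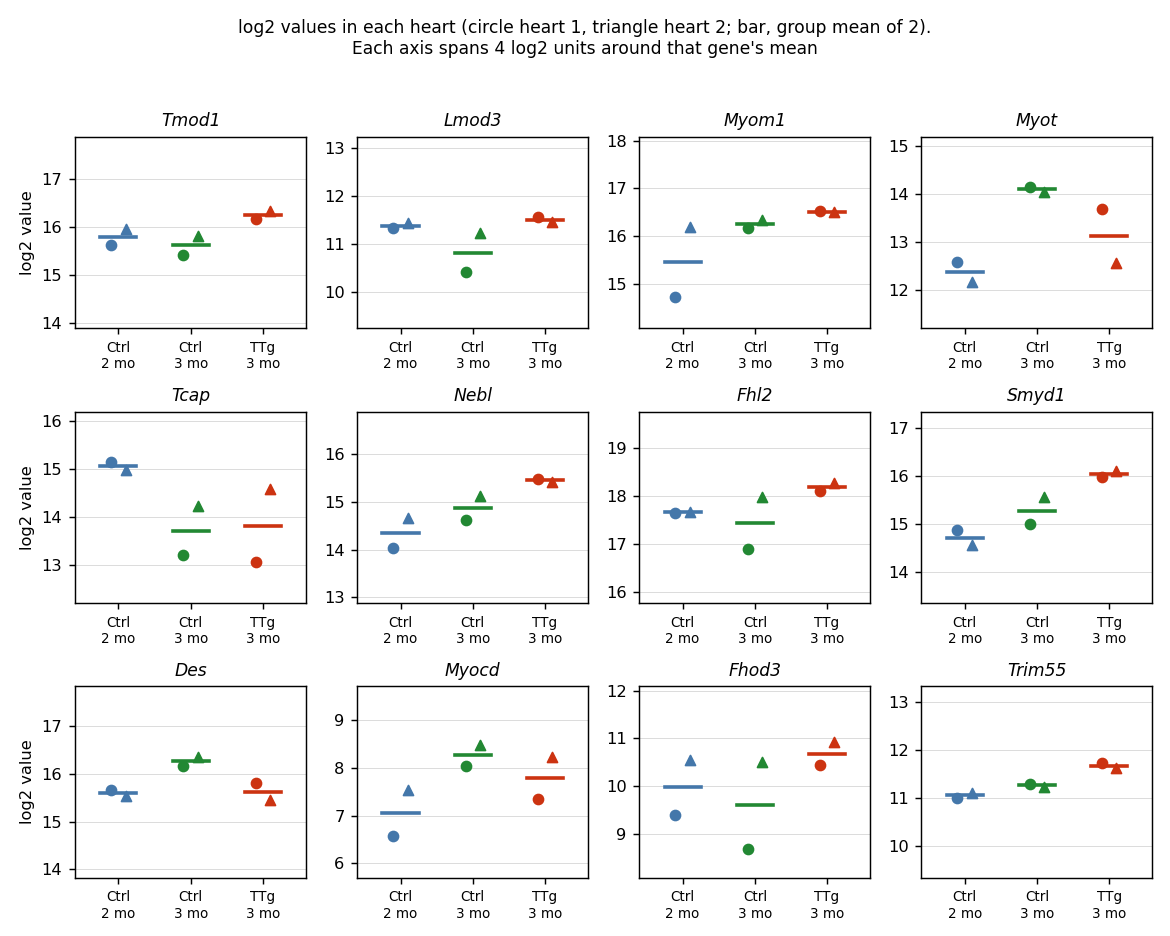
Deposited log2 value of selected genes in each of the 6 hearts; circles are heart 1, triangles heart 2 and short lines group means (n = 2 per group). For Smyd1 and Tmod1 both TTg hearts lie above all Ctrl hearts, and for Myot the Ctrl hearts at 3 months lie highest.

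The thick filament and M band genes had a median difference of 0.02 between TTg and Ctrl at 3 months. Their median was 0.47 for Ctrl at 3 against 2 months, where it depended on 1 heart: it was 0.03 without Ctrl heart 1 at 2 months. Myl2, the ventricular regulatory light chain, read 19.93, the highest value of the table, in all 6 hearts and carries no comparison. Myl3, the ventricular essential light chain, was 17.35 and 17.34 in Ctrl at 2 months, 16.96 and 17.46 at 3 months, and 17.33 and 17.15 in TTg, and the groups at 3 months overlapped. Mybpc3, cardiac myosin-binding protein C, was 16.61 and 17.35, then 17.57 and 17.57, then 17.69 and 17.26. Its 3-against-2-month difference of 0.59 ± 0.31 was 0.22 without Ctrl heart 1 at 2 months.

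Ttn, the giant spring that spans from Z disc to M band, was 16.25 and 17.13, then 17.14 and 17.69, then 17.53 and 17.36. The same 2-month heart was low, and the 3-against-2-month difference of 0.72 ± 0.35 was 0.28 without it. Myom1, the M band protein that cross-links myosin, was 14.73 in that heart and 16.19 in the other 2-month heart, against 16.18 and 16.33 in the later Ctrl hearts and 16.53 and 16.50 in TTg. Its TTg-against-2-month difference of 1.05 ± 0.45 (limma, adjusted p = 0.513) was 0.33 without the low heart. Myom2, a second M band protein, was 15.29 and 16.01, then 15.83 and 16.18, then 15.62 and 15.22. Both TTg hearts lay below both 3-month Ctrl hearts, by 0.58 on average (difference -0.58 ± 0.32, and -0.38 without TTg heart 2). Mybpc3, Ttn and Myom1 had in common the same low heart, Ctrl heart 1 at 2 months. That heart had raised skeletal muscle genes, the highest fibroblast mean (12.87) and the lowest mean of cardiomyocyte genes outside the sarcomere (16.10). A link between these values was not tested.

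The Z disc genes had a median difference of 0.09 between TTg and Ctrl at 3 months, of 0.10 between Ctrl at 3 and 2 months, and of 0.39 between TTg and the earlier Ctrl hearts. Myot, myotilin, which bundles actin at the Z disc, was 12.57 and 12.15 in Ctrl at 2 months, 14.15 and 14.04 in the later Ctrl hearts, and 13.68 and 12.56 in TTg. The Ctrl hearts at 3 months lay highest, and TTg heart 2 lay near the 2-month level. The difference between Ctrl hearts was 1.73 ± 0.39, or 3.33-fold (limma, adjusted p = 0.406). The TTg difference at 3 months was -0.97 ± 0.39 (adjusted p = 0.661), and -0.41 without TTg heart 2. Tcap, telethonin, which ties the ends of titin together, had lower means at 3 months: 15.16 and 14.98, then 13.21 and 14.23, then 13.07 and 14.58. Every 3-month heart, Ctrl or TTg, was below both 2-month hearts. The difference between Ctrl hearts was -1.35 ± 0.53 (limma adjusted p = 0.593), and -0.84 without Ctrl heart 1 at 3 months.

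Ldb3, also called ZASP or cypher, a Z disc scaffold, was 15.96 and 15.64, then 16.26 and 16.80, then 16.64 and 16.43. All 4 hearts at 3 months lay above both at 2 months, with a difference of 0.73 ± 0.28 for Ctrl (adjusted p = 0.575; 0.46 without Ctrl heart 2 at 3 months) and 0.73 ± 0.28 for TTg (adjusted p = 0.478, limma). Mypn, myopalladin, which links titin and nebulin family proteins to the Z disc, showed the same order: 8.62 and 8.80, then 9.45 and 9.75, then 9.25 and 10.13. Nebl, nebulette, an actin-aligning protein of the cardiac Z disc, was 14.04 and 14.65, then 14.61 and 15.11, then 15.48 and 15.41. Both TTg hearts were above every Ctrl heart. The TTg difference was 1.10 ± 0.30 against Ctrl at 2 months (limma adjusted p = 0.370), and 0.80 without Ctrl heart 1 there. Against Ctrl at 3 months it was 0.58 ± 0.30, and 0.33 without Ctrl heart 1 there.

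Fhl2, a LIM protein that joins sarcomere and signalling proteins, was 17.65 and 17.67, then 16.90 and 17.98, then 18.11 and 18.27. TTg was above both Ctrl groups, but its difference of 0.75 ± 0.36 at 3 months was 0.21 without Ctrl heart 1. Smpx, a small muscle protein of the costamere, was 15.73 and 15.28, then 14.48 and 15.15, then 15.57 and 15.24, with a TTg difference of 0.59 ± 0.32 at 3 months that was 0.25 without Ctrl heart 1. Pdlim3, an alpha-actinin-binding LIM protein, was 11.98 and 10.08, then 11.47 and 10.61, then 10.37 and 10.35. The gap of 1.90 between its 2-month hearts was the widest within any group among the 34 genes. Its partner Actn2, alpha-actinin 2, the main actin cross-linker of the Z disc, was 18.02 and 18.35, then 18.53 and 18.52, then 18.53 and 18.63. Its TTg-minus-Ctrl interval at 3 months, -0.50 to 0.61, lay within a 2-fold change. Pdlim5, another LIM protein, was between 17.74 and 18.42, and its groups at 3 months overlapped. Myoz2, calsarcin, an alpha-actinin-binding protein, read 19.87 to 19.93.

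All 9 genes for assembly, chaperone activity and turnover had a higher mean in TTg than in Ctrl at 2 months (median difference 0.53; 52.1% of all features were above 0). Leaving out 1 heart gave Des, Cryab or Trim63 the other sign and Hspb7 a difference of 0. Against Ctrl at 3 months 4 were above 0 and 4 below. Smyd1 had the smallest unadjusted p in both TTg comparisons. Smyd1, a muscle methyltransferase and myosin chaperone partner, was 14.87 and 14.57 in Ctrl at 2 months, 15 and 15.57 in the later Ctrl hearts, and 15.99 and 16.11 in TTg. The 3 groups did not overlap, and every 3-month heart lay above the 2-month hearts. The TTg difference was 0.77 ± 0.28 against Ctrl at 3 months (limma, adjusted p = 0.661) and 0.48 without Ctrl heart 1 there. Against Ctrl at 2 months it was 1.33 ± 0.28, or 2.51-fold (limma, adjusted p = 0.340), and 1.18 to 1.48 with any 1 heart left out. Unc45b, the myosin chaperone that works with it, did not show this order: 8.86 and 9.44, then 8.99 and 10, then 9.93 and 9.43.

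Des, desmin, the intermediate filament around Z discs, was 15.66 and 15.53, then 16.17 and 16.34, then 15.80 and 15.45. The 3-month Ctrl hearts were highest and TTg lay at the 2-month level: the difference was 0.66 ± 0.24 between the Ctrl groups (limma adjusted p = 0.572) and -0.63 ± 0.24 for TTg against Ctrl at 3 months (adjusted p = 0.661). Myocd, myocardin, the partner of serum response factor at CArG boxes, was also highest by mean in the later Ctrl hearts, with the TTg mean between the Ctrl means: 6.58 and 7.53, then 8.04 and 8.48, then 7.35 and 8.23. Its difference between the Ctrl groups was 1.20 ± 0.42 (adjusted p = 0.551, limma) and 0.73 without Ctrl heart 1 at 2 months. For TTg against Ctrl at 3 months it was -0.47 ± 0.42, with overlapping groups. Srf, which encodes serum response factor and is no member, was 9.27 and 9.73, then 10.44 and 11.11, then 10.53 and 10.29. Cryab, alpha-B crystallin, the chaperone of desmin and titin, was 18.44 and 17.53, then 18.61 and 18.70, then 18.40 and 18.31.

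The ubiquitin ligases of the sarcomere were not alike. Trim55, also called MuRF2, was 10.99 and 11.11, then 11.30 and 11.23, then 11.72 and 11.63, and its 3 groups did not overlap. Its TTg difference was 0.41 ± 0.22 against Ctrl at 3 months and 0.62 ± 0.22 against Ctrl at 2 months (limma adjusted p = 0.451). Trim63, also called MuRF1, was 12.42 and 13.70, then 13.11 and 14.31, then 13.56 and 13.54, with wide gaps between the Ctrl hearts. Fhod3, a formin that builds thin filaments, was 9.40 and 10.56, then 8.69 and 10.51, then 10.45 and 10.92. Its TTg difference of 1.08 ± 0.62 at 3 months was the highest of the 34 genes, but the groups overlapped and it was 0.17 without Ctrl heart 1. Hspb7, a small heat shock protein of the thin filament, read 19.80 to 19.92.

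The scale of the deposited values limits what the most abundant members can show. Whether the array or its processing set this limit was not tested. The table ended at 19.93, and 13 features read exactly that on all 6 arrays. A group of 6 members (Actc1, Tnnt2, Tpm1, Myl2, Myoz2 and Hspb7) read 19 or more on every array, and the median spread of these over the hearts was 0.10, against 1.27 for the 6 members between 16 and 18. Of the 37 features of all genes with a mean of 19 or more, 26 (70.3%) gave one value on 3 or more arrays, against 7.69% of the 39 features between 18 and 19. A small difference at this end of the scale is therefore not a measure of equal RNA. Tnni3, which lay below 19 and is counted among the 28 members there, also read one value, 18.32, on 4 of the 6 arrays. Over the 28 members below 19 on every array, the median difference was 0.09 for TTg against Ctrl at 3 months, 0.34 for Ctrl at 3 against 2 months, and 0.47 for TTg against Ctrl at 2 months. The 95% interval of the difference lay within a 2-fold change for 10, 8 and 9 of these 28 genes, so for the others a 2-fold difference lay inside the interval.

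**Figure D5:**
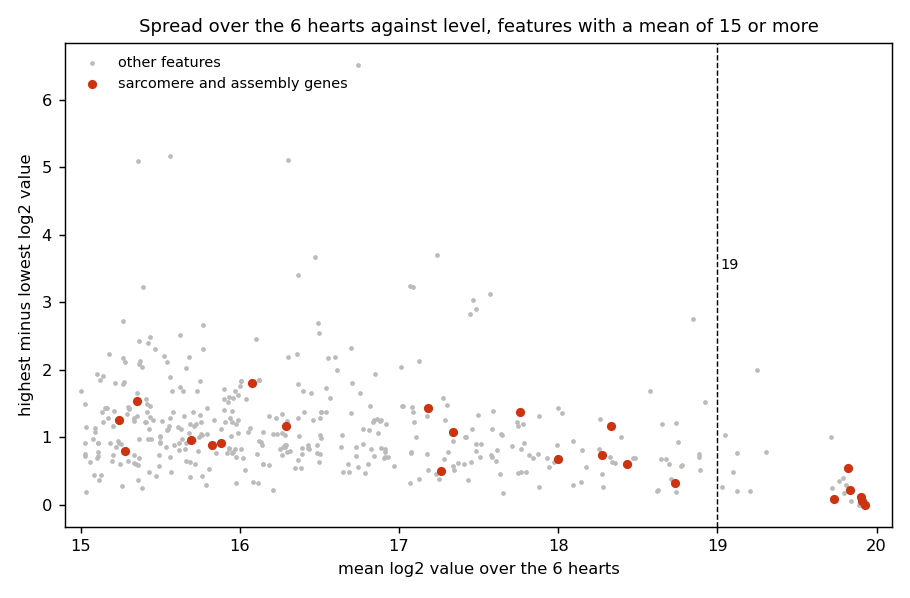
Range over the 6 arrays (log2, vertical axis) against mean value (log2, horizontal axis) for features with a mean of 15 or more, with the sarcomere and assembly genes in that range marked. The spread narrows towards the top of the scale at 19.93, where the 6 members above 19 lie.

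The other muscle structure genes, a list of 64 genes outside the 34 of which 62 were measured, had a median difference of -0.21 between TTg and Ctrl at 3 months, of 0.15 between Ctrl at 3 and 2 months, and of -0.07 between TTg and the earlier Ctrl hearts. The list was chosen with earlier results of these data known, so its counts are a description and not a test. None of the 62 was called in any comparison (limma, adjusted p over all features), where 0.0045%, 0.0045% and 0% of all features were. At an unadjusted p under 0.05, TTg against Ctrl at 3 months gave 0 higher and 14 lower (22.6% of the list, against 4.11% of all features). The lower count was 6 without Ctrl heart 1, 11 without Ctrl heart 2, 9 without TTg heart 1 and 5 without TTg heart 2. Ctrl at 3 against 2 months gave 12 higher (3.91% of all features) and 2 lower (4.09%). Without Ctrl heart 2 at 2 months it gave 8 higher and 8 lower, and without Ctrl heart 2 at 3 months 8 higher and 2 lower. The TTg hearts against the earlier Ctrl hearts gave 9 higher (4.3%) and 2 lower (5.41%). The higher count was 5 without TTg heart 1 and 4 without TTg heart 2, and the lower count was 8 without Ctrl heart 2 at 2 months, 4 without TTg heart 1, 1 without Ctrl heart 1 and 0 without TTg heart 2. Leaving out Ctrl heart 2 at 2 months gave calls: Mybpc1 in the second comparison, and Mybpc1, Neb and Tnni1 in the last. These genes, of skeletal muscle, were high only in Ctrl heart 1 at 2 months: Neb, nebulin, was 7.87 there and at most 4.99 elsewhere.

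The genes described next had the 4 widest differences of the list in each comparison. Acta1, skeletal alpha-actin, which the adult heart re-expresses under load, was 17.13 and 15.97 in Ctrl at 2 months, 18.57 and 19.30 in the later Ctrl hearts, and 16.72 and 12.78 in TTg. TTg heart 2 was the lowest of the 6, and the TTg difference at 3 months was -4.18 ± 1.13 (limma adjusted p = 0.661), and -2.21 without that heart. The Ctrl value of 19.30 lies near the top of the scale. Myh7, the slow beta-myosin heavy chain, was 17.25 and 17.67, then 18.15 and 18.95, then 17.58 and 15.82, a TTg difference of -1.85 ± 0.57 that was -0.97 without TTg heart 2. Xirp2, an actin-binding protein of the intercalated disc, was 11.48 and 11.58, then 14.29 and 13.29, then 12.26 and 10.90, a TTg difference of -2.21 ± 0.50. Synpo2l, a Z disc actin regulator, was 10.08 and 10.65, then 14.32 and 12.43, then 11.55 and 10.54, a difference of 3.01 ± 0.63 between the Ctrl groups (limma adjusted p = 0.406). In all 4 of these genes both 3-month Ctrl hearts were the highest, the order that Myot, Des and Myocd also had by group mean. Xirp1, a relative of Xirp2, and Ankrd23, a titin-binding ankyrin repeat protein, differed between the Ctrl groups by 2.85 ± 0.67 and 2.79 ± 0.64 (limma adjusted p = 0.465 and 0.449). Without Ctrl heart 1 at 3 months that of Xirp1 was 1.79. Against the earlier Ctrl hearts, the widest TTg differences were those of Neb (-2.18 ± 0.80), Mybpc1 (-2.13 ± 0.97), Acta1 (-1.80 ± 1.13) and Tnni1 (-1.71 ± 0.90). Without Ctrl heart 1 at 2 months, Neb was -0.74, Mybpc1 -0.35 and Tnni1 -0.07. Without TTg heart 2, Acta1 was 0.17, the other sign. Nrap, which helps new myofibrils form, had the smallest adjusted p of the list, 0.374, for Ctrl at 3 against 2 months (1.90 ± 0.26): 14.34 and 14.83, then 16.54 and 16.43, then 15.63 and 15.38.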

How the data were processed

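Whole-heart RNA of 6 mice was measured on Clariom S arrays, 2 hearts in each of 3 groups that the labels call independent biological samples. The deposited log2 values of 22206 features were made by the authors with Transcriptome Analysis Console 4.0, per the submitters' processing notes; the background correction and normalization are not given in the sources used here. The values were used as deposited. Gene symbols came from the platform annotation, which named 19572 features with 1 gene and left 2634 without. The members and lists were chosen with earlier results of these data known. Group means of all 6 arrays were fitted with limma 3.58.1 (R 4.3.3), with Benjamini-Hochberg adjustment over 22206 features and a threshold of 0.05; the fit was tested on simulated data. Only 2 hearts a group limits the precision, and an exact permutation test of 2 against 2 cannot go below 0.333. The named genes were all 34 members, the 4 widest differences of the list of other muscle structure genes in each comparison, and any other gene singled out was chosen after its values were seen.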

Additional observations from a re-analysis of the deposited data

How the results depend on the processing

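None of the 34 genes was called in any of the alternatives run, and no called value reversed. Without 1 heart in turn, features called ranged from 0 to 2 (TTg against Ctrl at 3 months), 0 to 6 (Ctrl at 3 against 2 months) and 0 to 22 (TTg against the earlier Ctrl hearts). The member median ranged from -0.0375 to 0.28, 0.0325 to 0.33 and 0.125 to 0.32. For TTg against Ctrl at 3 months, 2 features were called with the compared groups fitted alone. For Ctrl at 3 against 2 months, 0 were called with a prior variance trend, 0 with quantile scaling and 0 without dim features. For TTg against the earlier Ctrl hearts, 1 was called with a robust prior and 1 over features below 19. Over members below 19 the medians of the last 2 comparisons were 0.34 and 0.47. Same-numbered hearts deviated together with correlations of 0.133, 0.136 and 0.12, but groups hold only 2 numbers, so the numbers were not taken to pair the hearts. With the replicate block, 11 features were called for TTg against Ctrl at 3 months and 5 for TTg against the earlier Ctrl hearts; 0 were members. Under the alternatives 63 single-gene values changed sign or moved to or from 0, none of them called, and 1143 were unchanged in sign. With 2 hearts a group, samples that stand apart could not be tested for.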
